A study of Mus musculus with 45 samples.

Results

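Schlafen (Slfn) and interferon-induced transmembrane (Ifitm) genes were followed in mouse microglia and mouse brain under 4 inflammatory treatments. The set held 10 genes, Slfn1, Slfn2, Slfn5, Slfn8, Slfn9, Ifitm1, Ifitm2, Ifitm3, Ifitm6 and Ifitm10, out of 42929 named genes listed in all 3 expression tables. They were selected on earlier results of these same samples, so their changes below are given as a description with standard errors and without p-values. The annotation holds 16 numbered genes of both families, and the 6 that were not selected (Slfn3, Slfn4, Slfn10-ps, Slfn14, Ifitm5 and Ifitm7) are given with their tests.

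All samples came from C57BL/6 mice. Brain slices of newborn pups were cultured for 2 weeks and then kept for 24 h in plain medium (9 samples), with TNF (tumor necrosis factor) at 50 ng/mL (11 samples) or with GM-CSF, a myeloid growth factor, at 20 ng/mL (9 samples), and each sample of microglia was sorted from pooled slices (3 by the design text, 2 to 3 by the study's methods). Adult female mice of 10 to 15 weeks received 1 mg/kg of lipopolysaccharide (LPS, a bacterial cell wall component) or phosphate-buffered saline (PBS) by intraperitoneal injection, and microglia were sorted after 24 h (4 samples each). Whole brain tissue was taken from mice of the same ages 24 h after the same LPS dose (4 samples) and from untreated mice that received no injection (4 samples). The sort gate (CD11b high, CD45 intermediate) also admits other myeloid cells with these surface levels, and whole tissue mixes all brain cells.

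Both families are best known as parts of the interferon response. Interferons signal through Jak kinases. Type I interferons act on responsive genes through interferon-stimulated response elements (ISRE) near their start, while interferon gamma acts mainly through GAS elements. Ifitm proteins sit in membranes and hinder the entry of enveloped viruses, and Ifitm3 acts mainly in endosomes. Several Schlafen proteins restrain cell growth or viral protein synthesis. Slfn1 and Slfn2 are short forms studied in lymphocyte quiescence, whereas Slfn5, Slfn8 and Slfn9 are long forms with a helicase-like region.

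The Schlafen genes lie in a cluster on chromosome 11 of the mm10 genome. From Slfn5 (chr11:82951349-82964840, + strand) it runs through Slfn9 (chr11:82978390-82991830, - strand), Slfn8 (chr11:83002158-83020810, - strand) and Slfn2 (chr11:83065112-83070678, + strand) to Slfn1 (chr11:83116849-83122670, + strand). Ifitm2 (chr7:140954837-140955987, - strand), Ifitm1 (chr7:140967221-140969825, + strand), Ifitm3 (chr7:141009586-141010770, - strand) and Ifitm6 (chr7:141015699-141017924, - strand) are neighbours on chromosome 7, and Ifitm10 (chr7:142325837-142373753, - strand) lies farther along the same chromosome.

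Promoter windows of RefSeq (GRCm38.p6, the same assembly as mm10), from 250 bases before to 50 after each start, were searched on both strands for 3 sets of letters, namely an ISRE core (GAAANNGAA), a GAS element (TTCNNNGAA) and an NF-kB element (GGANNTTCC). Every member had a window. The ISRE core was found for 5 of 10 members (Slfn5, Slfn8, Slfn9, Ifitm2 and Ifitm3) against 8.56% of all 32851 windows. The GAS letters were found for Ifitm3 and Ifitm6 (8.3% of all windows), and the NF-kB letters for Ifitm3 (4.26% of all windows). The stretches from 160 bases before to 30 after the start are shown for the members with an ISRE core, with every match in capitals, because these genes can be read beside the changes that follow.
Ifitm3 (chr7:141010715-141010904, - strand): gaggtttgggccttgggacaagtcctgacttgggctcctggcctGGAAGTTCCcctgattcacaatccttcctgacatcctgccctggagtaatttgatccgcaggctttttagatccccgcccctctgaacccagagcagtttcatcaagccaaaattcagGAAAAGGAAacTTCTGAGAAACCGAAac
Ifitm2 (chr7:140955932-140956121, - strand): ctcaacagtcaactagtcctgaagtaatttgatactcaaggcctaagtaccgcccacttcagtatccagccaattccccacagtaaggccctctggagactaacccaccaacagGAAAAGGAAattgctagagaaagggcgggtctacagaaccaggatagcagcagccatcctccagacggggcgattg
Slfn5 (chr11:82951942-82952131, + strand): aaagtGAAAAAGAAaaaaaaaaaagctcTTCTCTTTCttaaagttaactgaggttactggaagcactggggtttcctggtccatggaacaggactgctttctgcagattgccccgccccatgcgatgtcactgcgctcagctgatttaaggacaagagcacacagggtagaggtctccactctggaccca
Slfn8 (chr11:83020781-83020970, - strand): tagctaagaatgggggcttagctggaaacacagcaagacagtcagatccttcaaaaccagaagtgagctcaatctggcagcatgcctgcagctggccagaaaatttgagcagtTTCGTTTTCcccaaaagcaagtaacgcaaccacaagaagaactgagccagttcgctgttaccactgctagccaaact
Slfn9 (chr11:82991801-82991990, - strand): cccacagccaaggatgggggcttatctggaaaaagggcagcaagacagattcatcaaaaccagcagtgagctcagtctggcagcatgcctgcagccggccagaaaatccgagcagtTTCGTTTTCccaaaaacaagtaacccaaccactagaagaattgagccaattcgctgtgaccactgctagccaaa

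Counted from 0 at the start, Ifitm3 held the ISRE core at 2 to 10 and again at 19 to 27, where it overlaps the GAS letters at 13 to 21, and the NF-kB letters at -116 to -108. The same 9 letters as at its earlier ISRE core, GAAAAGGAA, stood at -46 to -38 in Ifitm2. Slfn5 held the ISRE core at -155 to -147 and, read on the opposite strand, at -132 to -124. Slfn8 (-47 to -39) and Slfn9 (-44 to -36) both held TTCGTTTTC, the core read on the opposite strand, and their printed stretches were identical at 109 of 187 bases when aligned without gaps. No gapped alignment was made, so bases shifted by an insertion or deletion count as different in that figure. RefSeq lists a start for Slfn8 farther into the gene as well, whose window holds the same match. The windows of Slfn1, Slfn2, Ifitm1 and Ifitm10 held none of the 3 sets of letters, which says only that these letters are not in those windows.

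Close copies limit how firmly reads can be assigned. Of the windows of 75 bases (the read length of the slice libraries) in the annotated transcripts, 42.0% of those of Ifitm2 also occurred in another gene, 8.22% for Slfn5, 6.99% for Slfn8, 5.9% for Slfn9 and under 3% for each of the others. At 50 bases (adult microglia and brain tissue) the shares were 48.5% for Ifitm2, 14.6% for Slfn8, 11.9% for Slfn9, 11.1% for Slfn5 and 10.0% for Ifitm3. The adult microglia reads were paired, and a window of a single read takes no account of its mate. Ifitm2 shared mostly with Gm45717, an overlapping gene that was at 0 counts in the slice table and is not listed in the other tables. It also shared with the Gm11951 and Gm8865 copies, each at no more than 13 counts summed over any table. Slfn8 and Slfn9 shared with each other and with Slfn10-ps, and Slfn5 shared mostly with its antisense gene Slfn5os. Values of Ifitm2, Slfn8 and Slfn9 are therefore uncertain as to the exact copy.

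Total counts per library were 5973364 to 9165485 for slice microglia, 11391564 to 14216005 for adult microglia and 8199863 to 10368578 for brain tissue. Levels are CPM, the usual read counts scaled for library size, and levels of different genes are compared only per length, as RPKM (CPM divided by exon length in kilobases). All 8 microglia markers examined were above 1 CPM in every group, while T and NK cell markers summed to at most 2.17 CPM in any sorted library. The summed microglia markers were lower in every treated library of sorted cells than in every control, at 19218 to 26301 CPM in medium, 9664 to 12496 under TNF and 13925 to 15487 under GM-CSF, and at 56411 to 62828 in PBS and 38080 to 44200 under LPS. Their part in the changes of the members was not tested. Adult LPS replicate 2 stood apart from the other LPS libraries. On the log2 scale each library was placed between the PBS mean (0%) and the mean of the other 3 LPS libraries (100%). Over the 1872 genes called higher its median position was 72.8% (quartiles 50.3 to 97.4%), and over the 5 interferon signalling genes called higher it was 22.7%. The adult LPS log2 change of each member tested is therefore also given without that library. All other adult LPS values below include it unless stated, among them those of the interferon signalling genes.

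**Figure D1:**
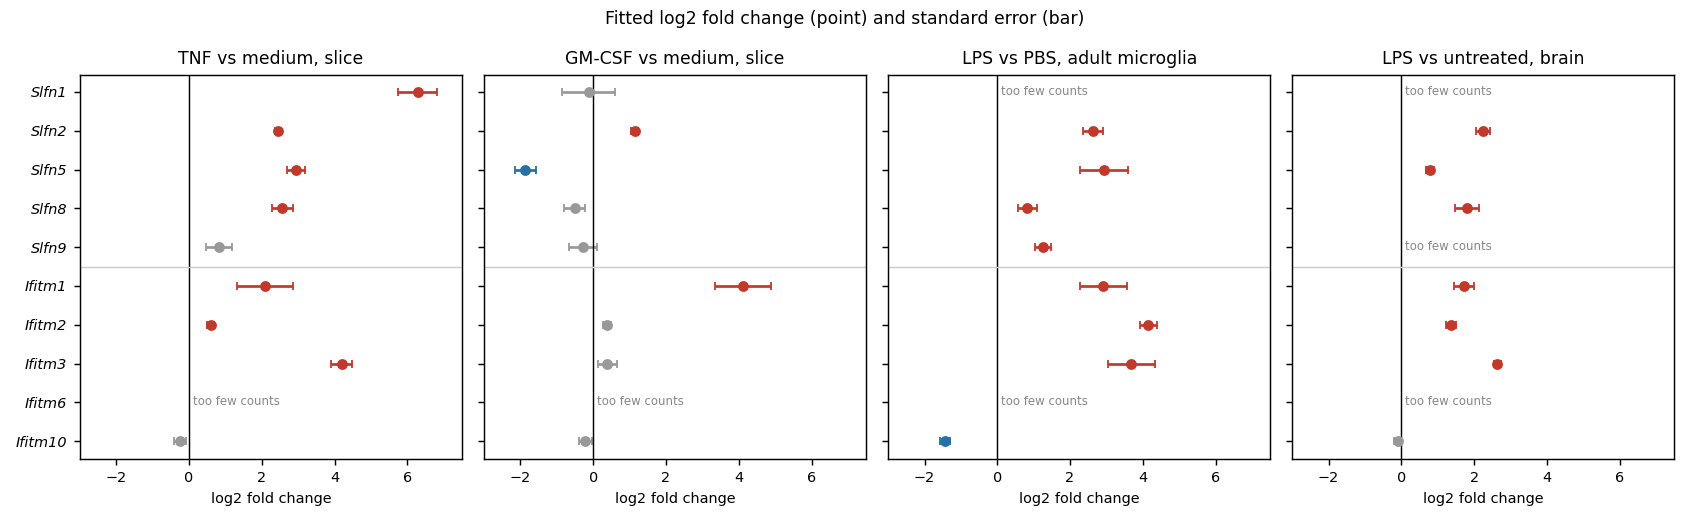
Fitted log2 fold change (x axis, point) and standard error (bar) of each of the 10 members (y axis) in the 4 treatment comparisons. Red marks members called higher, blue members called lower and grey members not called, where a call needs an adjusted p under 0.05 and a fold over 1.5. Slfn1 in TNF-treated slices lies farthest to the right (6.28), and the blue points are Slfn5 under GM-CSF (-1.86) and Ifitm10 in adult microglia under LPS (-1.44).

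TNF raised most of both families in slice microglia. Of the 9 members with enough counts to test, 7 passed the limits as higher and 0 as lower, in a comparison where 9.1% of the 11313 genes tested were called higher and 11.7% lower. The median log2 change was 2.45 for the members tested and -0.03 for all genes tested. The members were chosen with these values known, so the count is a description. Slfn1 and Ifitm1 passed the count filter only through treated libraries, where they were higher, while Ifitm6 did not pass it.

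Slfn1 had the largest change of the members under TNF. It lay between 0 and 1.82 CPM in medium (median 0.149) and between 27.8 and 81.0 CPM under TNF (median 52.8). All 11 TNF samples were above every medium sample, and the fitted log2 change was 6.28 (SE 0.54). With 43 reads in all 9 medium libraries together, Slfn1 was close to undetected before treatment.

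Slfn2 was the most abundant Schlafen gene in the slices. It rose from 154 ± 24.8 CPM (SD, n = 9) to 839 ± 90.9 (SD, n = 11), with samples between 113 and 199 in medium and between 681 and 961 under TNF. The log2 change was 2.45 (SE 0.09). Slfn5 went from 4.78 to 20.7 CPM in medium (median 12.7) to 50.9 to 170 under TNF (median 89.8), a log2 change of 2.94 (SE 0.25). Slfn8 went from 8.13 to 24.8 CPM (median 16.5) to 54.2 to 147 (median 96.5), a log2 change of 2.56 (SE 0.29). For Slfn2, Slfn5 and Slfn8 no TNF sample overlapped the medium range. The share of all genes without overlap is not given here, for this or any other comparison. Such separations are therefore not set against it.

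Slfn9 behaved less uniformly. It lay between 1.75 and 20.2 CPM in medium (median 11.6) and between 2.82 and 29.3 under TNF (median 19.2). Only 3 of 11 TNF samples were above every medium sample, and the log2 change of 0.82 (SE 0.36) was not called. The difference in outcome between Slfn9 and its neighbour Slfn8 was not tested.

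Ifitm3 was the member with the highest level per length after TNF. It lay between 30.7 and 150 CPM in medium (median 55.8) and between 906 and 1961 under TNF (median 1162), with no overlap. The log2 change was 4.19 (SE 0.28). Per length, its mean went from 101 to 1845 RPKM. The medium value of 150 CPM came from a single library, replicate 5, and the other 8 medium libraries averaged 58.5 ± 19.1 CPM (SD, n = 8).

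Ifitm2 started at a level per length close to that of Ifitm3 (means of 100.6 and 101.3 RPKM in medium) and changed less. It lay between 51.9 and 78.5 CPM in medium (median 73.9) and between 82.9 and 118 under TNF (median 101), again without overlap, with a log2 change of 0.59 (SE 0.10). Its medium samples fell into separate ranges by the code in their titles. The 4 samples with codes 1A or 1B lay between 51.9 and 55.7 CPM and the 5 with codes 2A or 2B between 73.9 and 78.5, and no other member had codes that did not overlap in any slice group. Within codes 1A and 1B the TNF change of Ifitm2 was 0.91 on the log2 scale, and within codes 2A and 2B it was 0.37 and no longer called. What the codes stand for is not given in the labels.

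Ifitm1 and Ifitm6 were near the limit of detection. Ifitm1 reached 0 to 1.31 CPM in medium (median 0) and 0 to 2.57 under TNF (median 0.793), with 4 of 11 TNF samples above every medium sample and a log2 change of 2.09 (SE 0.76). Its medium maximum was again replicate 5. Without that library 8 of 11 TNF samples were above every other medium sample and the log2 change was 3.29 (SE 0.81). Within codes 2A and 2B its change of 1.09 was not called. Ifitm6 had 26 reads over all medium libraries and 66 over all TNF libraries and was too low to test in any table. Ifitm10, the most divergent of the selected Ifitm genes, was at 33.0 ± 10.3 CPM (SD, n = 9) in medium and 27.6 ± 9.23 (SD, n = 11) under TNF, with a log2 change of -0.26 (SE 0.17) that was not called.

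**Figure D2:**
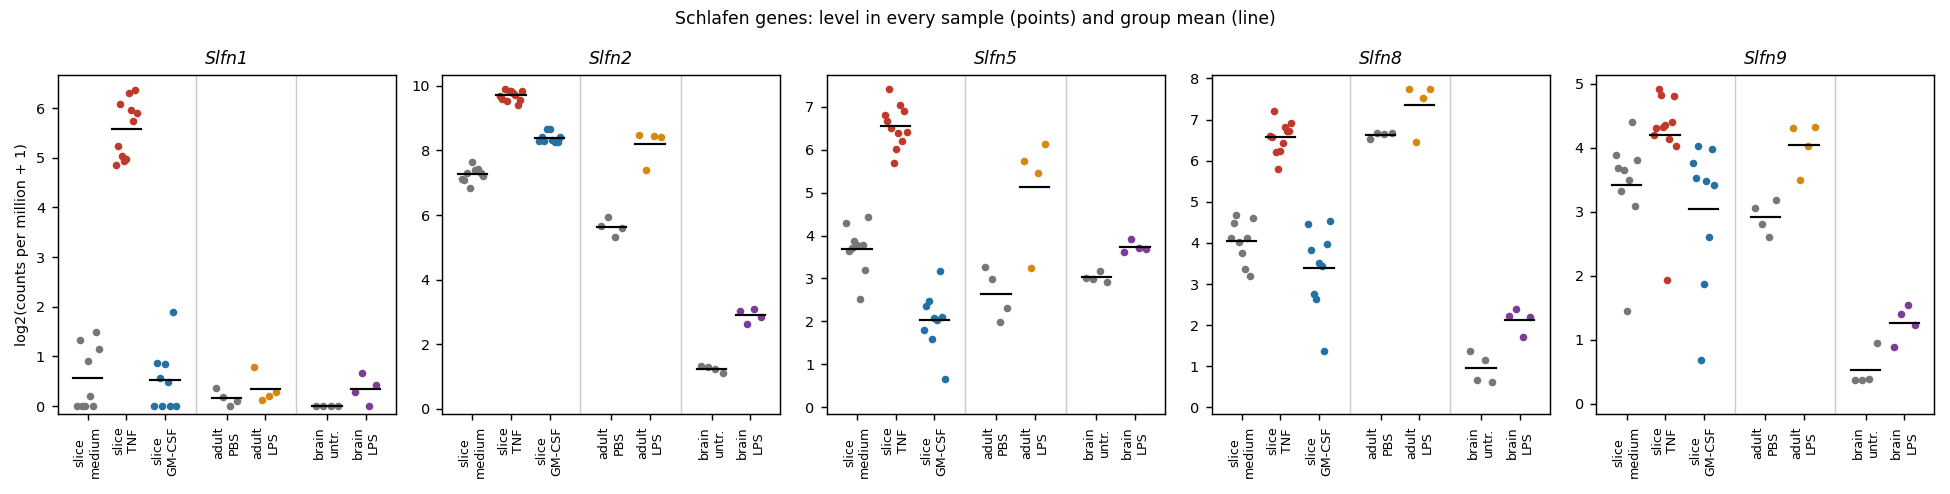
Level of the 5 Schlafen members in every sample, as log2(CPM + 1) on the y axis with its own range in each panel, by group on the x axis. Points are samples and lines are group means. The 11 TNF samples of Slfn1, Slfn2, Slfn5 and Slfn8 lie above all 9 medium samples, whereas those of Slfn9 overlap them. The 3 tables were made separately, so levels are compared within a table.

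GM-CSF changed few members, and in different directions. Of the 9 members tested, 2 were called higher (Slfn2 and Ifitm1) and 1 lower (Slfn5), where 4.84% of all genes tested were called higher and 5.96% lower. The median log2 change was -0.12 for the members and -0.04 for all genes. The medium samples are the same as in the TNF comparison. As there, Ifitm1 passed the count filter only through treated libraries.

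Slfn2 lay between 304 and 403 CPM under GM-CSF (median 321), above all medium samples in 9 of 9 libraries, with a log2 change of 1.14 (SE 0.09). Slfn5 moved the other way, to 0.582 to 8.01 CPM (median 3.2), and 8 of 9 GM-CSF samples were below every medium sample. Its log2 change was -1.86 (SE 0.29). The short Slfn2 and the long Slfn5, both raised by TNF, thus ended on opposite sides of medium under GM-CSF.

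Ifitm1 had its highest slice levels under GM-CSF, at 0.873 to 8.66 CPM (median 3.0), and 8 of 9 samples were above every medium sample. The log2 change was 4.11 (SE 0.78). It rests on 287 reads in the 9 GM-CSF libraries against 14 in the 9 medium libraries, 9 of them in replicate 5. Without replicate 5 the medium mean fell from 0.219 to 0.0827 CPM, 9 of 9 GM-CSF samples were above every other medium sample and the log2 change was 5.32 (SE 0.82). Within codes 2A and 2B the change of 3.22 was not called. The 8 monocyte markers summed to 761 to 1890 CPM in medium, 1486 to 3529 under GM-CSF and 1432 to 4169 under TNF. The medians were 969.5, 2151.5 and 2908.5 CPM in the same order. In each group 3 of 8 were above 1 CPM, and most of the sum was Fn1, which other cells make too. Plac8 was at 0 in every medium and GM-CSF library and Ly6c2 in every medium library. The neutrophil list summed to 0.834 to 15.8 CPM in medium, 3.19 to 44.1 under GM-CSF and 3.57 to 128 under TNF. Its medians were 2.38, 10.8 and 8.59 CPM in the same order. In these groups 1, 4 and 3 of 8 markers were above 1 CPM, and Ly6g was at 0 in every slice library. The part of these cell types in the Ifitm1 and Ifitm6 values was not tested.

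The remaining members did not pass the limits under GM-CSF. Slfn8 was at 1.58 to 22.1 CPM (log2 change -0.51, SE 0.30), Slfn9 at 0.611 to 15.3 (log2 change -0.28, SE 0.38) and Slfn1 at 0 to 2.73 (log2 change -0.12, SE 0.72). Ifitm2 was at 64.6 to 105 CPM (log2 change 0.38, SE 0.10), and 7 of 9 samples were above every medium sample. Ifitm3 was at 44.6 to 179 CPM (log2 change 0.39, SE 0.26) and overlapped medium in all but 1 sample. Within codes 1A and 1B both Ifitm2 (0.66) and Ifitm3 (1.04) passed the limits as higher, while within codes 2A and 2B the log2 changes were 0.21 and -0.07. Ifitm10 was at 23.3 to 34.5 CPM (log2 change -0.22, SE 0.18).

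Set directly against GM-CSF, TNF gave higher levels of Slfn1 (log2 difference 6.40, SE 0.55), Slfn5 (4.80, SE 0.29), Ifitm3 (3.8, SE 0.28), Slfn8 (3.07, SE 0.29), Slfn2 (1.31, SE 0.08) and Slfn9 (1.09, SE 0.36). For Slfn1, Slfn2, Slfn5, Slfn8 and Ifitm3 all 11 TNF samples were above all 9 GM-CSF samples. Ifitm1 was lower under TNF than under GM-CSF (log2 difference -2.03, SE 0.63), with 6 of 11 TNF samples below every GM-CSF sample. Ifitm2 (0.21, SE 0.10) and Ifitm10 (-0.04, SE 0.17) did not pass the limits. The doses differ in cytokine and amount, so these are differences between the conditions used. The median log2 difference over all genes tested was -0.02. The share of all genes past the limits in this comparison is not given here, so the members are not set against it.

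**Figure D3:**
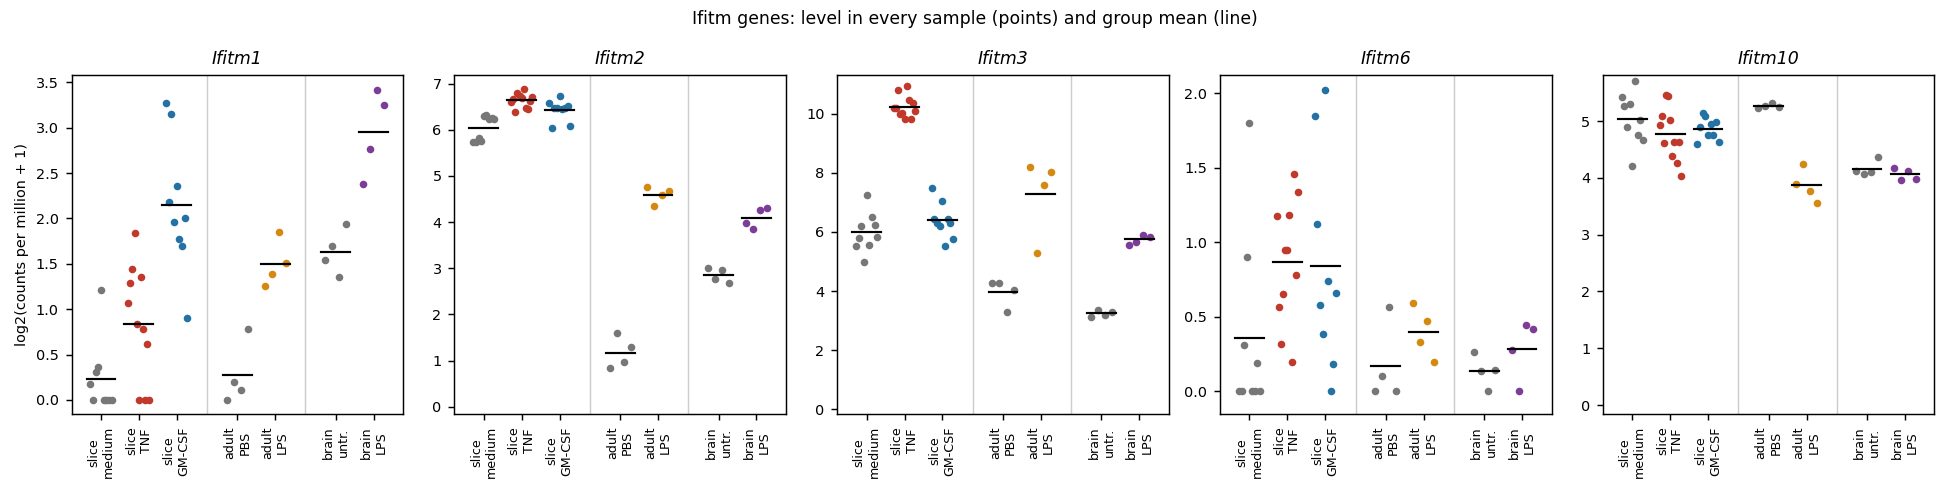
Level of the 5 Ifitm members in every sample, as log2(CPM + 1) on the y axis with its own range in each panel, by group on the x axis. Points are samples and lines are group means. Ifitm3 under TNF lies above 906 CPM in all 11 samples, Ifitm1 reaches its highest slice values under GM-CSF, and Ifitm10 is lower in all 4 adult LPS samples than in all 4 PBS samples.

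In adult microglia LPS raised 7 of the 8 members tested and lowered 1, Ifitm10, where 14.4% of the 12987 genes tested were called higher and 13% lower. The median log2 change was 2.77 for the members and 0.01 for all genes. Slfn1 had 7 reads over the PBS libraries and 16 over the LPS libraries and, like Ifitm6, was too low to test. Ifitm1 passed the count filter here only through the LPS libraries, where it was higher.

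Ifitm2 changed most among the members here. Its levels were 0.79, 2.01, 0.966 and 1.44 CPM in PBS replicates 1 to 4 and 26.3, 19.3, 23.1 and 24.7 in LPS replicates 1 to 4. All LPS values lay far above all PBS values, with a log2 change of 4.15 (SE 0.23), or 4.23 (SE 0.22) without LPS replicate 2. Ifitm3 stood at 18.3, 18.5, 8.86 and 15.5 CPM in PBS and at 296, 37.8, 192 and 259 under LPS. Replicate 2 was well below the other LPS libraries but above every PBS library. The log2 change was 3.68 (SE 0.65) with it and 4.02 (SE 0.26) without it. Ifitm1 stood at 0, 0.144, 0.0805 and 0.721 CPM in PBS and at 1.39, 1.63, 2.61 and 1.84 under LPS (log2 change 2.91, SE 0.64, and 2.98, SE 0.67, without replicate 2), which rests on 13 and 97 reads. PBS replicate 4 held 10 of the 13 PBS reads, and the log2 change was 4.48 (SE 0.62) without that library and 2.51 (SE 0.59) without PBS replicate 1.

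Among the Schlafen genes Slfn2 had the highest level per length. It stood at 49.5, 60.2, 38.7 and 47.3 CPM in PBS and at 353, 168, 350 and 343 under LPS, with a log2 change of 2.63 (SE 0.27), or 2.83 (SE 0.11) without replicate 2. Slfn5 stood at 8.69, 6.97, 2.98 and 3.96 CPM in PBS and at 52.7, 8.48, 42.7 and 69.0 under LPS. Replicate 2 fell inside the PBS range, so 3 of 4 LPS samples were above every PBS sample. Its log2 change was 2.93 (SE 0.66) and 3.27 (SE 0.33) without that library.

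Slfn8 was already abundant in PBS, at 91.0, 101, 99.3 and 102 CPM, and stood at 213, 86.0, 184 and 212 under LPS. Here replicate 2 was below every PBS sample and the other LPS samples above all of them. The log2 change was 0.82 (SE 0.27), and it was called in 7 of the 15 settings tried. Without replicate 2 it was 1.05 (SE 0.07) and was called. Slfn9 stood at 7.32, 6.04, 5.07 and 8.15 CPM in PBS and at 18.9, 10.3, 15.3 and 19.1 under LPS, without overlap. Its log2 change was 1.26 (SE 0.21), or 1.42 (SE 0.17) without replicate 2.

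Ifitm10 fell. It stood at 36.3, 37.3, 39.1 and 37.0 CPM in PBS and at 13.9, 18.1, 12.6 and 10.8 under LPS, so all LPS samples were below all PBS samples. The log2 change was -1.44 (SE 0.13), or -1.59 (SE 0.10) without replicate 2. The summed monocyte markers ranged from 14.2 to 21.1 CPM in PBS and from 41.5 to 232 under LPS (3 and 4 of 8 above 1 CPM, with F10 at 0 in every PBS library), and the neutrophil markers from 33.0 to 70.2 in PBS and from 2.99 to 8.68 under LPS (4 and 1 of 8 above 1 CPM, with Ly6g and Retnlg at 0 in every LPS library). Border macrophage markers ranged from 10.1 to 15.6 CPM in PBS and from 27.3 to 44.5 under LPS (1 and 3 of 6 above 1 CPM, none at 0 in a whole group). Endothelial markers ranged from 28.9 to 36.3 and from 10.2 to 13.7 (1 of 6 above 1 CPM in both groups, with Cldn5 and Tek at 0 or not listed). Astrocyte markers ranged from 254 to 280 and from 145 to 181 (1 and 2 of 5 above 1 CPM). Their part in the changes of the members was not tested.

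The members split by how far LPS replicate 2 followed the other LPS libraries. Ifitm2 reached 90.3% and Ifitm1 88.6% of the way from the PBS mean to the mean of the other LPS libraries. Ifitm10 reached 66.3%, Slfn2 63.0% and Slfn9 44.3%. Ifitm3 reached 32.9%, Slfn5 19.2% and Slfn8 -18.1%, that is, on the far side of the PBS mean. All 5 interferon signalling genes called higher were under 50% in this library, against 24.7% of all genes called higher. This is a description of 1 library, and what it received or how it was handled beyond its label was not tested.

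**Figure D4:**
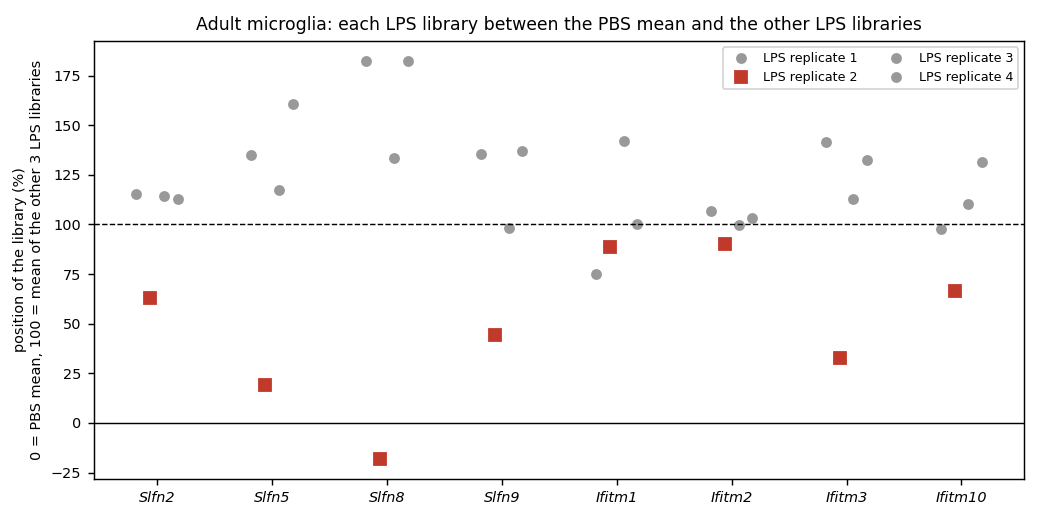
Position of each adult LPS library (y axis, percent) for the 8 members tested (x axis), where 0 is the PBS mean and 100 the mean of the other 3 LPS libraries on the log2(CPM + 1) scale. The red squares are LPS replicate 2, which lies at 90.3% for Ifitm2 and 88.6% for Ifitm1 but at 19.2% for Slfn5 and -18.1% for Slfn8.

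In brain tissue LPS raised 6 of the 7 members tested and lowered 0, where 2.63% of the 15083 genes tested were called higher and 0.55% lower. The median log2 change was 1.72 for the members and 0.00 for all genes. Slfn8 passed the count filter here only through the LPS libraries, where it was higher. In whole tissue more cells of a type and more RNA per cell cannot be told apart.

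Ifitm3 stood at 7.74, 9.14, 8.17 and 8.88 CPM in untreated brains and at 46.6, 49.5, 59.1 and 56.3 after LPS, with a log2 change of 2.64 (SE 0.10). Slfn2 stood at 1.51, 1.46, 1.35 and 1.15 CPM and at 7.07, 5.19, 7.49 and 6.18 after LPS, with a log2 change of 2.23 (SE 0.20). Slfn8 stood at 1.61, 0.583, 1.24 and 0.522 CPM and at 3.69, 4.24, 2.3 and 3.59 after LPS (log2 change 1.80, SE 0.33). In each of these genes every LPS sample was above every untreated sample.

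Ifitm1 stood at 1.91, 2.24, 1.55 and 2.82 CPM in untreated brains and at 4.22, 5.78, 9.67 and 8.54 after LPS (log2 change 1.72, SE 0.27). Ifitm2 stood at 7.04, 5.83, 6.83 and 5.43 CPM and at 14.8, 13.4, 18.1 and 18.6 after LPS (log2 change 1.37, SE 0.14). Slfn5 stood at 7.04, 7.0, 8.07 and 6.58 CPM and at 11.3, 14.1, 12.1 and 11.9 after LPS (log2 change 0.78, SE 0.12). These groups did not overlap either. Ifitm10 stood at 16.4, 15.7, 16.1 and 19.5 CPM and at 17.1, 14.6, 16.4 and 14.8 after LPS, with a log2 change of -0.10 (SE 0.10).

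Slfn9 had 18 reads in the untreated brains and 50 after LPS and did not pass the filter. Slfn1 had 0 reads in the untreated brains and 10 after LPS, which is at least 3.79-fold higher when 3 reads over the untreated group are taken as the floor. The endothelial markers summed to 168 to 183 CPM in untreated brains and 242 to 285 after LPS (6 of 6 above 1 CPM in both groups). The neutrophil markers summed to 1.36 to 2.59 and 4.47 to 9.21 (1 and 3 of 8 above 1 CPM, with Ly6g at 0 or not listed). The microglia markers summed to 292 to 334 and 239 to 397. Border macrophage markers summed to 5.43 to 7.86 and 9.31 to 13.2 (2 and 4 of 6 above 1 CPM, with Mrc1 at 0 or not listed). Astrocyte markers summed to 1042 to 1108 and 1138 to 1382, and oligodendrocyte markers to 4826 to 5180 and 3540 to 4094. The sums of monocyte, neuron, and T and NK cell markers overlapped between the groups. The part of these cell types in the changes of the members was not tested.

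The effects of LPS were set against each other across adult microglia and brain tissue, where tissue, kit and control differ together. Ifitm2 changed more in adult microglia by 2.77 (SE 0.27) on the log2 scale and Slfn5 by 2.14 (SE 0.73), while Ifitm10 differed by -1.34 (SE 0.17). For Ifitm3 the difference was 1.03 (SE 0.75), and without adult LPS replicate 2 it was 1.37 (SE 0.30) and passed the limits. For Slfn2 it was 0.39 (SE 0.55), for Ifitm1 1.18 (SE 0.68), for Slfn9 -0.38 (SE 0.49) and for Slfn8 -0.99 (SE 0.66), none past the limits. How many of all genes differed past the limits is not given here.

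The make-up of the families per length differed between the preparations. Slfn2 held 91.8% of the summed RPKM of the 5 Schlafen members in slice medium, 87.9% under TNF and 97.5% under GM-CSF. In adult PBS microglia it held 53.0% and Slfn8 43.3%, and under LPS Slfn2 held 77.8% and Slfn8 18.1%. In untreated brain tissue Slfn5 held 49.9% and Slfn2 36.1%, and after LPS Slfn2 held 55.0% and Slfn5 27.6%. Within the Ifitm members Ifitm3 and Ifitm2 were close in slice medium (48.4% and 48.0%) and under GM-CSF (48.3% and 47.8%), whereas under TNF Ifitm3 held 92.1%. In adult microglia Ifitm3 held 68.9% in PBS and 87.7% under LPS, and Ifitm10 went from 23.9% to 0.9%. In brain tissue Ifitm3 went from 45.2% to 69.2%. The large share of sequence windows that Ifitm2 has in common with other genes bears on its part of these shares. How many reads this touched is not known. The tables of the adult and brain samples were counted separately from that of the slices.

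**Figure D5:**
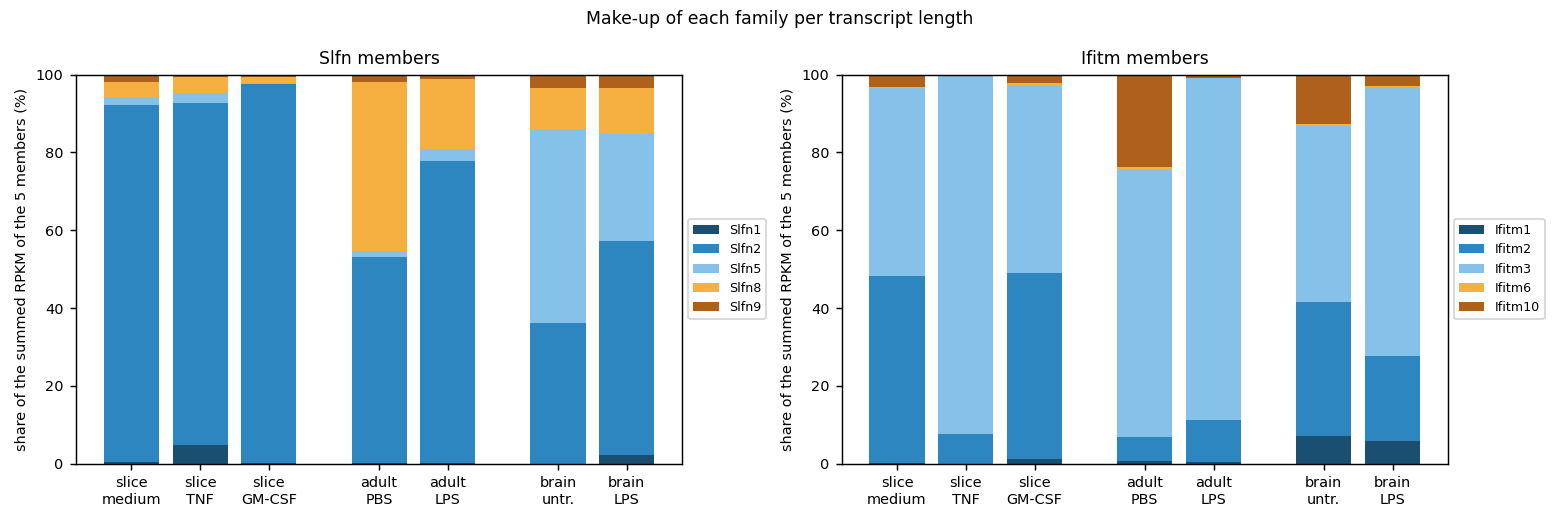
Share (y axis, percent) of each member in the summed RPKM of the 5 Schlafen members (left) and the 5 Ifitm members (right), from group means, by group on the x axis. Slfn2 takes most of the Schlafen sum in the slices (at least 87.9%), Slfn8 takes 43.3% in adult PBS microglia and Slfn5 49.9% in untreated brain.

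Of the family genes that were not selected, Slfn10-ps and Slfn3 could be tested in the slices. Slfn10-ps, a pseudogene that shares sequence windows with Slfn8 and Slfn9, rose under TNF from a median of 3.91 to 12.6 CPM. Its log2 change was 1.79 (adjusted p = 2.86e-04, edgeR quasi-likelihood test), with 9 of 11 samples above every medium sample. It did not pass under GM-CSF (log2 change -0.48, adjusted p = 0.44, edgeR) or in adult microglia under LPS (log2 change 0.35, adjusted p = 0.162, edgeR). Slfn3, of intermediate length, rose under TNF from a mean of 0.881 to a mean of 2.81 CPM (log2 change 1.64, adjusted p = 0.0134, edgeR, 7 of 11 samples above every medium sample). It passed the count filter only through the TNF libraries, which bears on that adjusted p. Slfn3 did not pass the limits under GM-CSF (0.82, adjusted p = 0.308, edgeR), where its log2 change was -0.26 within codes 1A and 1B. The TNF call of Slfn3 was lost within codes 1A and 1B and within codes 2A and 2B (log2 changes of 1.21 and 2.11). Slfn4 was at 0 reads in all medium and GM-CSF libraries and at 106 over the TNF libraries, at least 29.7-fold higher with a floor of 3 reads over the medium group, and it had 60 reads in LPS brains against 2 in untreated brains. Slfn14 had 7 reads under GM-CSF and 0 in medium and TNF. Ifitm5, which is known from bone, had at most 5 reads in any group. Ifitm7 had 48 reads under TNF against 11 in medium, and failed the filter in all 3 tables.

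The interferon signalling genes were followed as a list of 16 receptors, kinases, transcription factors and feedback inhibitors, chosen with earlier results of these data known. Under TNF 8 of the 14 tested were called higher and 1 lower (list median 0.73, all genes -0.03 on the log2 scale). Under GM-CSF 0 were called higher and 6 lower (-0.48 against -0.04). Under LPS 5 of 14 were higher in adult microglia and 0 lower (0.25 against 0.01), and 5 of 12 were higher in brain tissue and 0 lower (0.34 against 0.00). The list genes called under GM-CSF thus went the same way as Slfn5 and the opposite way to Slfn2 and Ifitm1.

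Irf7, which drives interferon production, was the highest of the list under TNF (4.49, SE 0.23, adjusted p = 4.73e-16, edgeR), in adult microglia (2.58, SE 0.53, adjusted p = 0.00535, edgeR) and in brain tissue (3.14, SE 0.15, adjusted p = 4.40e-09, edgeR), and the lowest under GM-CSF (-1.22, SE 0.24, adjusted p = 2.16e-04, edgeR). Usp18, a brake on the type I receptor, changed by 4.33, -1.17, 2.52 and 2.32 in TNF, GM-CSF, adult LPS and brain LPS, past the limits in all 4. Stat2 was called under TNF (2.30), GM-CSF (-0.78) and adult LPS (1.54) but not in brain tissue (0.40). Irf1 was called under TNF (1.35), GM-CSF (-0.78) and brain LPS (0.72), and Irf9 under TNF (0.77), adult LPS (0.77) and brain LPS (1.06). The interferon gamma receptor Ifngr1 was the lowest of the list under TNF (-0.73, adjusted p = 6.80e-11, edgeR). Jak1 was lowest under LPS in adult microglia (-0.23) and brain tissue (-0.03), and Tyk2 highest under GM-CSF (-0.02), none of these past the limits.

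The genes most like Slfn2 and Ifitm3 were found by the smallest distance over the 4 log2 changes among the 9700 genes tested in all 3 tables. Nearest to Slfn2 (2.45, 1.14, 2.63 and 2.23 in TNF, GM-CSF, adult LPS and brain LPS) were Treml2 (distance 1.11), Gpr84 (1.12), Ctsc (1.42), Cp (1.43) and Igsf6 (1.502). Treml2 changed by 1.46, 0.82, 2.26 and 2.23. Nearest to Ifitm3 (4.19, 0.39, 3.68 and 2.64) were Oasl1 (distance 1.14), Gpr84 (1.53), Ch25h (1.54), Ifit1 (1.56) and Ifi211 (1.57). Oasl1, an oligoadenylate synthetase-like gene, changed by 4.89, -0.46, 3.84 and 2.42. The TNF and GM-CSF values share the medium samples, and the likeness is a description over 4 values.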

How the data were processed

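RNA of 45 samples in 7 groups was measured by RNA sequencing. For slice microglia the authors deposited raw read counts per gene (75-base single-end reads), and the submitters' processing notes name STAR 2.7.0a, featureCounts, Subread 1.6.4 and mm10, with no role or order. For adult microglia (50-base paired-end) and brain tissue (50-base single-end) the authors deposited estimated counts per gene on mm10, which were rounded here to whole numbers. Not given in the sources used here were their counter and the use of strand in any table. The brain table also listed 92 spike-in rows, all at 0, which were left out. Reads that fit several copies can be dropped or shared out depending on the counter, which bears most on Ifitm2, Slfn8 and Slfn9.

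Groups came from the labels. Each table was tested on its own with edgeR 4.0.16 (R 4.3.3): TMM scaling, genes kept by a minimum count of 10 and a total of 15, robust quasi-likelihood fits over all groups of the table, and Benjamini-Hochberg adjustment over all genes tested. Calls needed an adjusted p under 0.05 together with a fold over 1.5. The fits were tested on simulated counts first. CPM and RPKM were computed from the counts, with TMM library sizes and the summed exon length of GENCODE M21. The members, gene lists and marker lists were chosen with earlier results of these data known. All 10 members and all other numbered Slfn and Ifitm genes were named, list genes were named when called in 3 or more of the 4 comparisons or at either end of their list, and the 5 genes nearest to Slfn2 and to Ifitm3 were named. A further result under this rule is not reported here. By the study's methods the in vivo samples came from independent mice, and the slice samples were pools of separately treated slices gathered over 4 independent experiments. The labels do not tie a slice sample to its animal or experiment, so slice samples may share either. Alternatives were other scalings, filters and tests (DESeq2 1.42.0), subsets by title code, a replicate block and leaving out replicates.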

Additional observations from a re-analysis of the deposited data

Results flagged for a closer look

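Of 57 gene and group pairs with 4 to 10 samples, 8 held a sample whose gap to its nearest neighbour passed Dixon's limit. For independent, normally distributed values about 1 in 20 would pass. These pairs share libraries and some hold few reads, so no excess over that rate can be read from the count. Slice medium replicate 5 was such a sample for Ifitm1 (1.31 CPM), Ifitm3 (150 CPM) and Ifitm6 (2.48 CPM), where the highest of the other 8 medium libraries were at 0.289, 90.2 and 0.868 CPM. It also had the highest Slfn2 level of the medium libraries (199 CPM) and the lowest of Slfn9 (1.75 CPM). Untreated brain replicate 4 was apart for Ifitm10 (19.5 CPM) and Slfn9 (0.94 CPM, from 9 reads). Adult PBS replicate 3 was apart for Ifitm6 (0.483 CPM, from 6 reads), slice GM-CSF replicate 8 for Slfn1 (2.73 CPM), and adult LPS replicate 2 for Slfn2 (168 CPM).

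The change with LPS differed between adult microglia and brain tissue past the limits for Slfn5 (2.14 on the log2 scale), Ifitm2 (2.77) and Ifitm10 (-1.34), in the direction of adult microglia minus brain tissue. The members were chosen with both contrasts known, so these are descriptions. The share of all genes past the limits in this fit is not given here, so the members are not set against it. Tissue, library kit and the kind of control (PBS or no injection) cannot be told apart here.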

How the results depend on the processing

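Over the fold changes of the members, 394 values under an alternative kept their direction and their side of the limits, 13 fell below the limits, 2 passed them newly and 2 changed sign. The sign changes were Ifitm3 under GM-CSF with title codes 2A and 2B only (-0.066) and Ifitm10 in TNF against GM-CSF with the replicate block (0.016), and Slfn3, not a member, changed sign under GM-CSF with codes 1A and 1B only (-0.26). None of these was called in either fit. Without the fold limit the genes called numbered 4476 for TNF, 2892 for GM-CSF, 6703 for adult LPS and 1533 for brain LPS, against 2353, 1222, 3563 and 479. The stricter filter (minimum count 50) left 288 genes called in brain tissue and 3 members called higher there against 6, and 1 member called higher under GM-CSF against 2, since members with few reads were no longer tested. With title codes 1A and 1B only, 4 members were called higher under GM-CSF, and with codes 2A and 2B only it was 1 member and 785 genes in all. The cause of these was not tested. Leaving out a replicate gave 3373 to 4044 genes and 6 to 7 members called higher in adult microglia, with 1 member lower throughout, and 412 to 543 genes and 6 to 7 members higher in brain tissue, with 0 lower throughout. Without slice medium replicate 5, an alternative chosen after seeing the data, 2327 genes were called for TNF and 1194 for GM-CSF, with the same numbers of members. The count of 4044 came without adult LPS replicate 2. Slfn8 in adult microglia lost its call in 6 of these 8 fits and kept it without LPS replicate 2 or PBS replicate 4. In the slices Ifitm2 under TNF was no longer called with library totals only (0.53). Depth limits Ifitm1, Ifitm6, Slfn1 and Slfn9 most, whose counts were few in some or all groups.

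Samples with the same replicate number did not all deviate together (correlations of deviations 0.0412 to 0.184 for TNF, 0.0168 to 0.111 for GM-CSF, -0.033 to 0.0206 for adult LPS and -0.0779 to 0.0428 for brain LPS). In TNF against medium all 9 correlations were positive and 4 of 9 were over 0.1, from pairs that also share a title code, and in GM-CSF against medium 2 of 9 were over 0.1. Since not every pair was over 0.1 and the labels tie no number to a batch or animal, the numbers were not taken as a pairing. With the replicate number as a block 2423, 1258, 3452 and 448 genes were called for TNF, GM-CSF, adult LPS and brain LPS. In adult microglia Slfn5 (2.74) and Slfn8 (0.75) were not called under the block.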
